A study of Bos taurus with 6 samples.

Results

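The transcripts of 9 genes were examined in bovine blastocysts: IL6, the receptor genes IL6R, IL6ST and LIFR, the kinase genes JAK1 and JAK2, the transcription factor genes STAT3 and STAT5B, and the inhibitor gene SOCS3. They were found by their gene symbol, and each of the 9 had 1 row among the 36075 genes of the table. The genes were chosen by name with the TPM of the same control and MT-treated libraries already known, so their difference between the groups is described below without a test. The 3 control libraries came from in vitro produced blastocysts whose slaughterhouse oocytes were matured for 22 h without melatonin (MT), and the 3 MT-treated libraries from blastocysts of oocytes that received 1e-07 mol/L MT during maturation. MT was thus given to the oocyte, before fertilization, and the transcripts were measured in the blastocyst. Each library was made from a pool of 3 blastocysts, and the replicates of each group came from 3 production runs. The animal age and strain behind the oocytes were not given in the sources used here, and a pool holds inner cell mass and trophectoderm together, so fewer cells of a type and less RNA per cell cannot be told apart.

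Cytokines of the IL6 family bind a receptor of their own, such as IL6R, and signal through the shared receptor chain gp130, the product of IL6ST, either alone or together with the LIF receptor. Gp130 carries Janus kinases, which phosphorylate STAT proteins when ligand is bound, and phosphorylated STAT3 enters the nucleus and activates genes that include SOCS3, whose product inhibits the same receptor complex. In cattle, IL6 added to embryo culture is known for increasing the number of inner cell mass cells, and STAT3 is the best known mediator of IL6 in embryos. Transcript levels report neither the secretion of a cytokine nor the phosphorylation of a STAT protein, and only transcript levels were measured here.

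The deposited unit is TPM, the share of a transcript in its library after correction for gene length, so levels of different genes can be compared within a library. The listed values of a library summed to 936783 to 937698 TPM in control and to 912686 to 913707 TPM with MT. The totals thus differed between the groups, and the cause was not tested. TPM keeps no read counts, so the counting error of the values could not be computed, and the depths the study gives were not used here. Between 8854 and 8953 genes were above 0 in the control libraries and between 14372 and 14408 in the MT-treated libraries. Of the 11953 genes that reached 1 TPM in 3 or more libraries, 33.8% were listed at 0 in all control libraries and 3.01% in all MT-treated libraries. Genes that every cell uses were among those at 0: of 30 genes for subunits of RNA polymerases, looked up after the data were seen, 5 were listed at 0 in every control library and above 0 in every MT-treated library, and 0 of the 30 were at 0 throughout the MT-treated libraries. A value of 0 in a control library is therefore given only as listed at 0, with no fold change against it. Among markers of the blastocyst, the trophectoderm genes KRT8 and KRT18 and the pluripotency gene POU5F1 were present in every library, whereas CDX2 and NANOG, which define trophectoderm and inner cell mass, were listed at 0 in every control library, with means of 16.1 and 8.68 TPM in the MT-treated libraries. Other markers lay the other way, with means of 36.1 TPM in control and 0.49 TPM with MT for TFAP2A of the trophectoderm list, and of 1.21 and 0.42 TPM for LIN28B of the inner cell mass list.

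The 9 genes did not differ between the groups in a single direction. The values of IL6, JAK2, STAT5B and SOCS3 all lay above those of control in the MT-treated libraries, and 3 of these genes were listed at 0 in every control library. The values of IL6R, IL6ST, JAK1 and STAT3, the 4 genes with at least 1 TPM in all 6 libraries, all lay below control. LIFR was listed at 0 in all 6 libraries. The groups thus did not overlap for 8 of the 9 genes, and they did not overlap for 96.1% of the 11953 tested genes, so that separation is not particular to these genes. Of the 9 genes, 7 passed the filter on low values, and SOCS3 and LIFR did not.

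**Figure D1:**
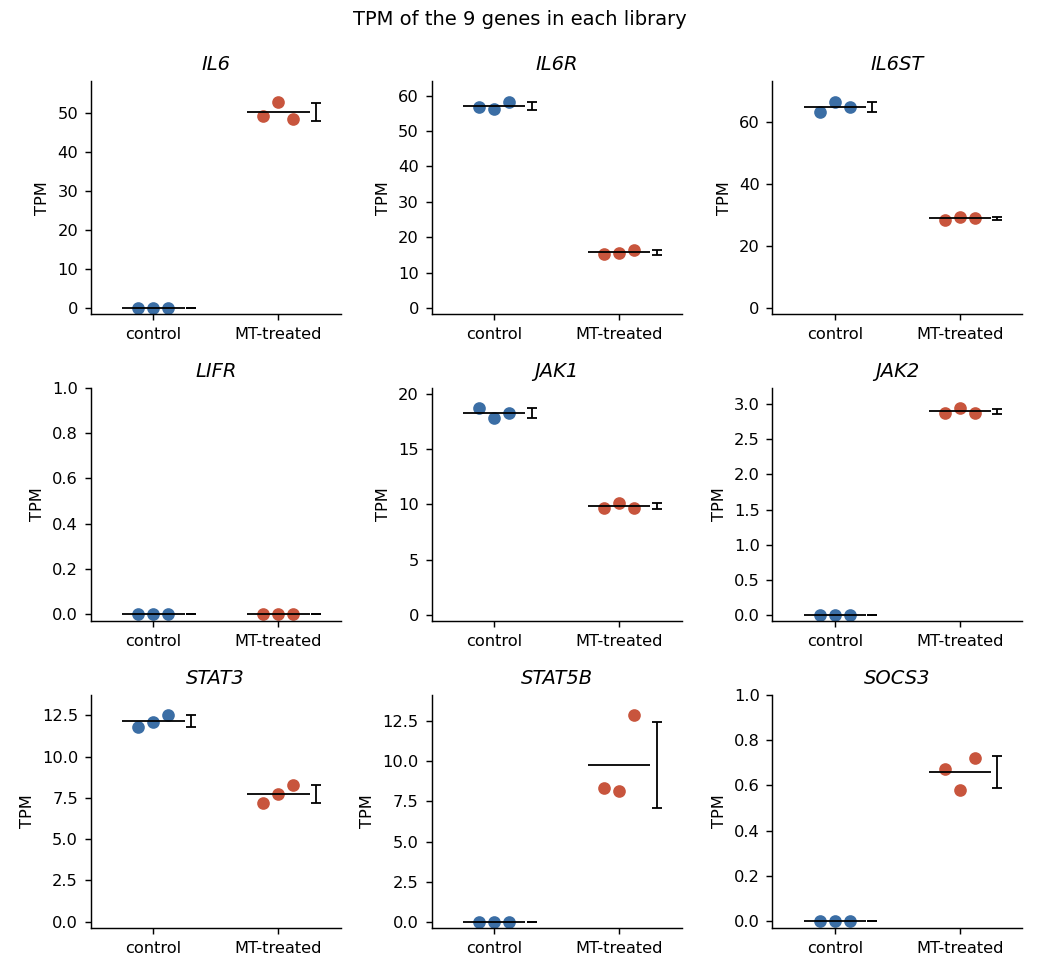
TPM (vertical axis) of each of the 9 genes in the 3 control (blue) and 3 MT-treated (red) libraries, with the mean as a line and the SD as a bar beside it. IL6 reached 48.4 to 52.8 TPM with MT against at most 0.04 TPM in control, IL6R, IL6ST, JAK1 and STAT3 were lower with MT, and LIFR was at 0 throughout.

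The ligand was the member with the highest level in MT-treated blastocysts. IL6 (ENSBTAG00000014921), the founding cytokine of the family, measured 0.04, 0 and 0 TPM in control replicates, against 49.2, 52.8 and 48.4 TPM with MT. Its MT-treated mean was 50.1 ± 2.34 TPM (SD, n = 3), a level above that of 83.7 to 84.9% of the genes detected in the same libraries. In the control library where it was above 0, it stood above 6.85% of the detected genes. Of the other ligand genes, CTF1, which encodes cardiotrophin 1, was listed at 0 for each control replicate, and its values were 0.77, 0.80 and 1.01 TPM with MT. IL11, LIF, CNTF, OSM, CLCF1, IL27 and EBI3 were listed at 0 in all 6 libraries.

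The receptor that binds IL6 was lower where IL6 was higher. IL6R (ENSBTAG00000018474) measured 56.6, 56.2 and 58.3 TPM in control replicates, against 15.1, 15.6 and 16.5 TPM with MT. The mean was 57.0 ± 1.11 TPM in control and 15.7 ± 0.683 TPM with MT (SD, n = 3 each), 3.62-fold lower, and every MT-treated value lay far below every control value. IL6ST (ENSBTAG00000017745), the shared signal chain, measured 63.5, 66.7 and 65.1 TPM in control replicates, against 28.6, 29.5 and 29.1 TPM with MT. Its mean was 65.1 ± 1.61 TPM in control and 29.1 ± 0.455 TPM with MT (SD, n = 3 each), 2.24-fold lower. The difference between the groups was many times the SD for both receptor genes.

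LIFR (ENSBTAG00000010423), the chain that gp130 needs to respond to LIF, was listed at 0 in every library, and so were IL11RA, CNTFR, IL27RA and IL31RA. OSMR, the oncostatin M receptor, had at most 0.03 TPM. IL6R and IL6ST were thus the receptor genes of the family at 1 TPM or more, and the summed level of the 8 receptor genes, 120 to 123 TPM in control and 43.8 to 45.6 TPM with MT, came almost wholly from them. In the RefSeq order of bovine protein-coding genes, IL31RA is the direct neighbour of IL6ST, and OSMR of LIFR, and both of these neighbours had 0.03 TPM or less in all libraries.

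The kinases lay on opposite sides of control. JAK1 (ENSBTAG00000003147), the kinase on which gp130 signalling depends most, measured 18.7, 17.8 and 18.2 TPM in control replicates, against 9.70, 10.1 and 9.67 TPM with MT. The mean was 18.2 ± 0.451 TPM in control and 9.84 ± 0.263 TPM with MT (SD, n = 3 each), which is 1.85-fold lower with MT. JAK2 (ENSBTAG00000012047), which also serves the receptors of growth hormone, prolactin and erythropoietin, was listed at 0 for each control replicate, and its values were 2.88, 2.94 and 2.88 TPM with MT. In MT-treated blastocysts JAK2 was the minor of the pair, at 0.295 ± 0.00431 of the level of JAK1 within a library (SD, n = 3). JAK3 was listed at 0 in all libraries, and TYK2 had at most 0.03 TPM.

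The STAT genes showed the same contrast. STAT3 (ENSBTAG00000021523) measured 11.8, 12.1 and 12.5 TPM in control replicates, against 7.21, 7.72 and 8.27 TPM with MT. Its mean of 12.2 ± 0.346 TPM in control was 1.57-fold above the mean of 7.73 ± 0.530 TPM with MT (SD, n = 3 each), the smallest fold difference of the 4 genes measured in all libraries. STAT5B (ENSBTAG00000010125), best known for relaying growth hormone and prolactin signals, was listed at 0 for each control replicate, and its values were 8.33, 8.13 and 12.9 TPM with MT. The third MT-treated library was thus apart from the other two. STAT5A, a near-identical copy that lies between STAT5B and STAT3 in the RefSeq gene order, was listed at 0 in every library. Reads that fit both copies may have been counted for STAT5B or for STAT5A, so the division between STAT5A and STAT5B is uncertain.

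SOCS3 (ENSBTAG00000008441), a target of STAT3 and the inhibitor of gp130 signalling, was listed at 0 for each control replicate, and its values were 0.67, 0.58 and 0.72 TPM with MT. This level was above only 17.4 to 18.6% of the genes detected there and below the TPM of 1 required for testing. With the transcript of IL6 at 48.4 to 52.8 TPM in the same libraries, SOCS3 was the lowest of the members that were detected.

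In control blastocysts the order of the levels was IL6ST, IL6R, JAK1 and STAT3, and the ranges of neighbours in this order did not overlap. The remaining 5 genes were at or near 0 and cannot be ordered. In MT-treated blastocysts the order was IL6, IL6ST, IL6R, JAK1, STAT5B, STAT3, JAK2 and SOCS3. There the range of STAT5B, 8.13 to 12.9 TPM, overlapped with those of JAK1 and STAT3, and the other neighbours did not overlap.

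The spread between replicates differed among the members. In MT-treated blastocysts the coefficient of variation was 27.4% for STAT5B, higher than in 93.4% of the 4392 genes whose mean lay within 2-fold of its own and whose median coefficient was 6.36%. It was 1.19% for JAK2, higher than in 2.14% of 2105 genes at a similar level. The coefficients of IL6, IL6R, IL6ST, JAK1 and STAT3 lay between 1.56 and 6.86% with MT, and those of IL6R, IL6ST, JAK1 and STAT3 between 1.95 and 2.84% in control. Of these genes IL6 and STAT3 with MT varied more than 62.8 and 51.3% of the genes at a similar level, and the others more than 10.1 to 47.0%. SOCS3 and the members at or near 0 were not compared in this way.

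A ratio of TPM of a pair of genes within a library does not depend on a common factor applied to the library, so the 4 genes measured everywhere were also compared with each other. The ratio of IL6R to IL6ST was 0.892, 0.841 and 0.895 in control replicates, against 0.529, 0.528 and 0.567 with MT. IL6R was thus lower with MT also relative to its own signal chain. The ratio of STAT3 to JAK1 was 0.633, 0.683 and 0.685 in control and 0.743, 0.761 and 0.855 with MT, and that of JAK1 to IL6ST was 0.280 ± 0.0138 in control and 0.338 ± 0.00545 with MT (SD, n = 3 each). The ratio of STAT3 to IL6ST was 0.187 ± 0.00522 and 0.266 ± 0.0167 (SD, n = 3 each). On the TPM scale the fold differences were therefore unequal, in the order IL6R, IL6ST, JAK1 and STAT3 from the largest to the smallest. None of these 4 ratios overlapped between the groups. Single genes did not overlap for 96.1% of the 11953 tested genes, and ratios of other gene pairs were not computed. The separation of the ratios is therefore not read as particular to these genes. With MT, the transcript of IL6 was 3.19 ± 0.230 times as abundant as that of IL6R and 1.72 ± 0.0615 times as abundant as that of IL6ST (SD, n = 3 each).

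**Figure D2:**
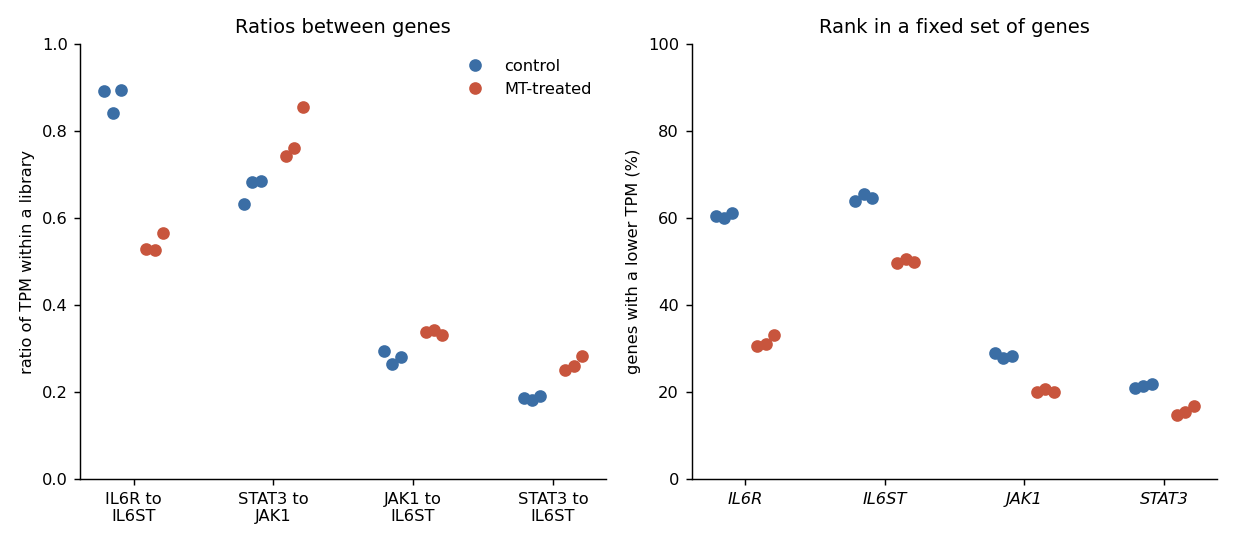
Left, ratio of the TPM of gene pairs within each library; right, share of a fixed set of 5988 genes with a lower TPM than the named gene, in percent, with control libraries in blue and MT-treated libraries in red. The ratio of IL6R to IL6ST was lower with MT, the other 3 ratios were higher, and all 4 genes ranked lower with MT.

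The rank of the members depended on the genes they were ranked among. Over the 5988 genes with at least 1 TPM in all 6 libraries, IL6R stood above 60.2 to 61.2% of the genes in control and above 30.7 to 33.1% with MT, and IL6ST above 64.0 to 65.6% and 49.8 to 50.6%. JAK1 stood above 28.0 to 29.1% in control and 20.0 to 20.8% with MT, and STAT3 above 21.0 to 21.9% and 14.7 to 16.9%. Over all genes detected in each library, which were more numerous with MT, the ranges of the 2 groups overlapped for IL6ST (75.0 to 76.1% in control, 74.3 to 75.0% with MT), JAK1 (47.5 to 48.5% and 47.6 to 48.7%) and STAT3 (42.3 to 42.7% and 41.7 to 44.3%). IL6R alone of the 4 ranked apart in that comparison, at 72.1 to 72.5% in control and 59.0 to 61.5% with MT.

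The scaling of the libraries bears on the same 4 genes. The median log2 difference of the 5988 genes was -0.27, and centring each library on their median removed a shift of -0.48. On the log2(TPM + 1) scale the differences between the groups were -1.79 for IL6R, -1.14 for IL6ST, -0.83 for JAK1 and -0.59 for STAT3, and after centring they were -1.32, -0.66, -0.35 and -0.11. With quantile normalization, after which all libraries have equal distributions, they were -2.23, -0.89, -2.51 and -2.41. The direction of the 4 genes was the same under both scalings, but the size moved for all of them by more than the SD between replicates. Their order also turned with quantile normalization, where JAK1 and STAT3 differed most and IL6ST least.

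**Figure D3:**
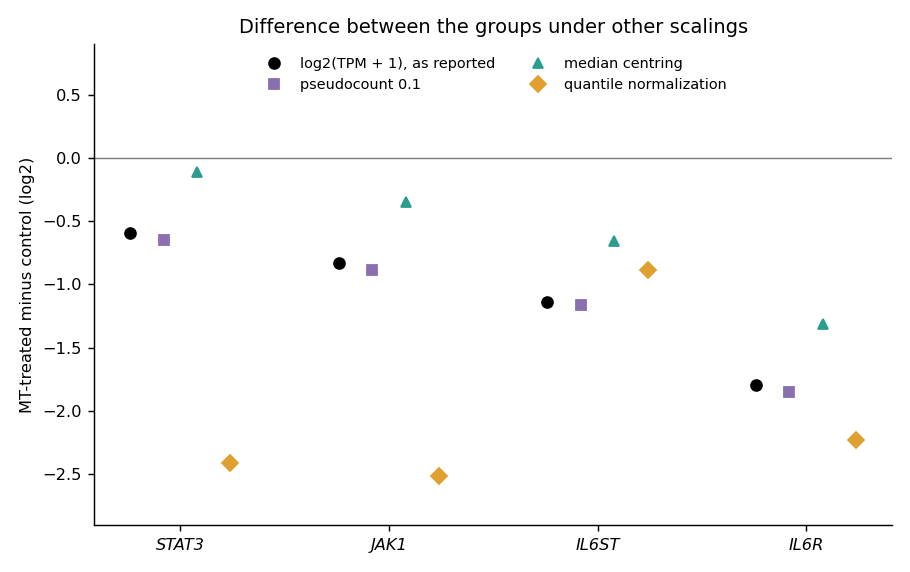
Difference between MT-treated and control blastocysts on the log2 scale for STAT3, JAK1, IL6ST and IL6R as reported, with a pseudocount of 0.1, after centring on the median and after quantile normalization. All points lie below 0, and STAT3 lies closest to 0 after centring, at -0.11.

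The other genes of the pathway were collected in 9 lists by role, which hold 95 genes beside the 9 members. Of these, 94 were listed in the table, 31 were at 0 in all 6 libraries, 16 were above 0 but too low to test, and 47 were tested with limma, with Benjamini-Hochberg adjustment over all 11953 tested genes. Of the 47 genes, 29 were higher and 16 lower with MT (61.7% and 34.0%), and among all tested genes 61.6% were higher and 34.1% lower, so the shares in the pathway were close to those of the table as a whole. In control, 19 of these 29 genes were listed at 0 for all replicates, and 1 of the 16 lower genes was listed at 0 throughout the MT-treated libraries. A gene below 1 TPM throughout a group passed the filter through the other group alone and so had to differ, and its values are given below without a p. Among the 26 pathway genes above 0 in all 6 libraries, a restriction made after the data were seen, 9 were higher and 15 lower, against 2814 higher and 3626 lower of 6925 genes overall.

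**Figure D4:**
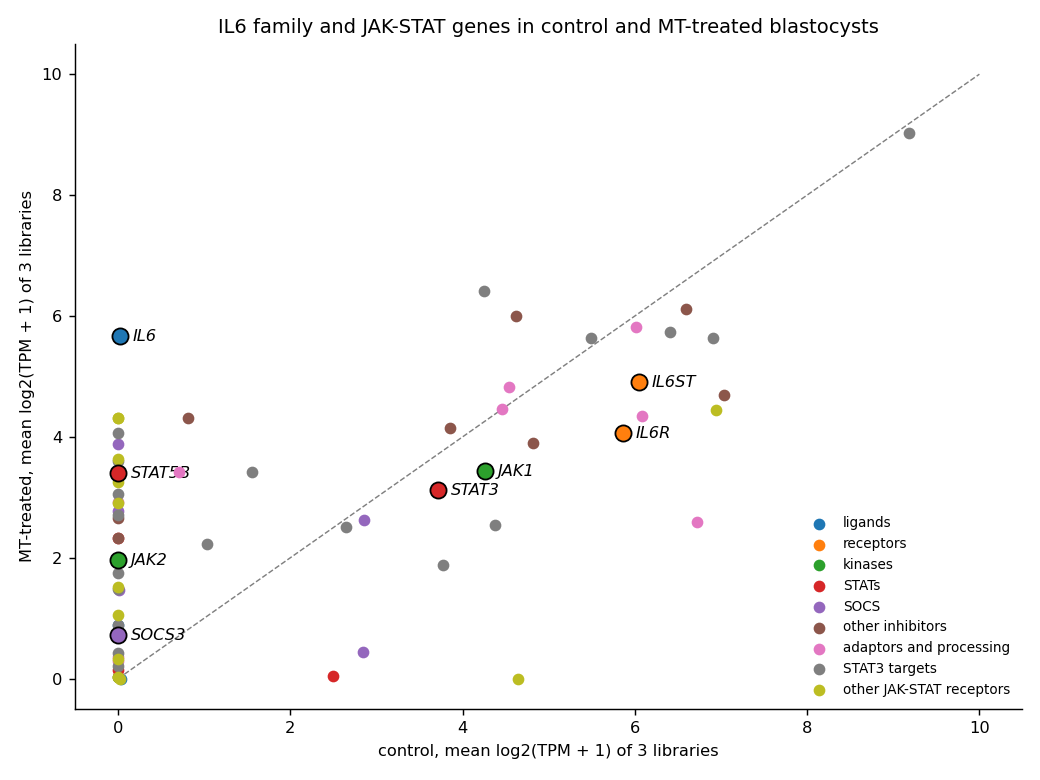
Mean log2(TPM + 1) of 3 libraries in control (horizontal axis) and MT-treated blastocysts (vertical axis) for the genes of the 9 lists that were above 0 in any library, coloured by role, with the members outlined and named and equal levels on the dashed line. Many genes lie on the left edge, at 0 in control, with IL6 the highest of the members there, and IL6R, IL6ST, JAK1 and STAT3 lie below the line.

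Among the other STAT genes, STAT4, which acts downstream of IL12 in lymphocytes, had 3.18, 6.50 and 4.68 TPM in control and 0.03, 0.01 and 0.04 TPM with MT. Its control values spread widely, yet the groups lay apart. STAT2 had at most 0.13 TPM, and STAT6 was listed at 0 in every library.

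Of the 5 tested SOCS genes, 3 were called higher and 2 lower, against 61.6% and 34.1% of all tested genes. The calls of SOCS1, SOCS4, SOCS5 and SOCS2 follow from the filter, since each was below 1 TPM throughout a group, and SOCS5 was no longer called after quantile normalization. SOCS1, an inhibitor of JAK kinases, had 4.57, 7.48 and 5.70 TPM with MT and was listed at 0 in every control library. SOCS4 was also listed at 0 for each control replicate, and its values were 13.0, 12.9 and 15.7 TPM with MT, which made it the most abundant SOCS gene there. SOCS5 had 0.02, 0 and 0 TPM in control and 1.64, 1.83 and 1.80 TPM with MT. These genes were listed at or near 0 for control, where SOCS2 and SOCS6 had the highest values of the list. SOCS2, the inhibitor of growth hormone signalling, had 6.15 ± 0.243 TPM in control and 0.350 ± 0.0346 TPM with MT (SD, n = 3 each). SOCS6 had 6.23 ± 0.0306 TPM in control and fell to 5.17 ± 0.204 TPM with MT (SD, n = 3 each). This was a difference of -0.23 ± 0.04 (standard error) on the log2(TPM + 1) scale (adjusted p = 0.000978, limma). It turned to 0.25 after median centring and was -2.14 with quantile normalization, so its size and direction depend on the scaling. SOCS7 and CISH were listed at 0 in every library.

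Of 8 tested inhibitors of other kinds, 62.5% were called higher and 37.5% lower, near the shares of all tested genes, and 2 of the 5 higher genes were listed at 0 for control. The phosphatase gene PTPN1 had 0.753 ± 0.119 TPM in control and 18.8 ± 0.716 TPM with MT (SD, n = 3 each), and PTPN6, the phosphatase SHP1, was listed at 0 in control and had a mean of 5.30 TPM with MT. PTPN2, a phosphatase of JAK1 and STAT3, fell from 27.2 ± 1.42 to 13.9 ± 0.291 TPM (SD, n = 3 each, adjusted p = 1.81e-06, limma), in the same direction as both of its substrates. PIAS2, from the family of protein inhibitors of activated STAT, fell from 130.4 ± 0.863 to 24.9 ± 1.12 TPM (SD, n = 3 each, adjusted p = 6.50e-09, limma), whereas PIAS1 and PIAS4 of the same family were called higher, with means of 23.6 and 13.5 TPM in control and 62.8 and 16.6 TPM with MT. PIAS4 turned to -0.42 on the log2 scale with quantile normalization. PIAS3 was listed at 0 for control and had 3.65 to 4.22 TPM with MT.

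Among 8 tested adaptors and processing genes, 4 were called higher (50.0%) and 3 lower (37.5%), against 61.6% and 34.1% of all tested genes, and 2 of the 4 were listed at 0 for control. SHC1, an adaptor that links receptors to RAS, and NMI, a partner of STAT proteins, were listed at 0 for control, with means of 6.58 and 9.98 TPM with MT. GAB1, a docking protein of the gp130 and growth factor receptors, fell 3.47-fold from 67.0 ± 2.13 to 19.3 ± 1.44 TPM (SD, n = 3 each, adjusted p = 2.46e-07, limma). STAM, which sorts ubiquitinated receptors, fell 20.9-fold from 104.6 ± 3.56 to 4.99 ± 0.146 TPM (SD, n = 3 each, adjusted p = 8.98e-10, limma). ADAM10, a protease that can shed IL6R, had 20.9 ± 0.737 and 21.1 ± 0.318 TPM (SD, n = 3 each) and was not called (adjusted p = 0.689, limma). It was called higher after median centring (0.49 on the log2 scale), and its direction reversed with quantile normalization (-0.14).

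Of 16 tested genes known as STAT3 targets in other cells, 10 were called higher, 6 of them listed at 0 for control, and 5 lower. BCL2L1, an inhibitor of apoptosis, and FGG, a fibrinogen chain of the acute phase, were listed at 0 for control, with means of 11.1 and 15.7 TPM with MT. BCL3 fell from 19.7 ± 0.579 to 4.83 ± 0.200 TPM and CEBPB, the transcription factor first known as nuclear factor for IL6, from 12.6 ± 0.710 to 2.68 ± 0.330 TPM (SD, n = 3 each, adjusted p = 3.77e-08 and 8.16e-07, limma). The shares of 62.5% and 31.2% were close to the 61.6% and 34.1% of all tested genes.

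Of the receptors that signal through JAK and STAT proteins for other ligands, 8 passed the filter. All 6 of those higher with MT were listed at 0 for control, and 1 of the 2 lower genes was listed at 0 with MT, so the direction of all but IL10RB follows from the filter and nothing is read from these counts beside the 61.6% and 34.1% of all tested genes. PRLR, the prolactin receptor, and IFNGR1, a chain of the interferon gamma receptor, were listed at 0 for control, with means of 19.0 and 18.8 TPM with MT. IL10RB fell 5.91-fold from 122 ± 2.90 to 20.7 ± 0.730 TPM (SD, n = 3 each, adjusted p = 4.09e-09, limma). CSF2RA, a chain of the receptor of the embryokine CSF2, had 26.1, 23.1 and 22.8 TPM in control and was listed at 0 in every MT-treated library.

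The genes with the most similar profile of log2(TPM + 1) over the 6 libraries were MSTO1 for IL6R, ANKRD17 for IL6, TP53I13 for STAT3, DPH3 for IL6ST, DDIT4 for JAK1, NCAPD2 for JAK2 and ARFGEF2 for STAT5B, at Euclidean distances of 0.0485, 0.0779, 0.0899, 0.145, 0.186, 0.0265 and 0.175. ARFGEF2 had 8.37, 8.64 and 11.5 TPM with MT and 0 in control, and shared the higher value of STAT5B in the third MT-treated library. The profiles hold 2 groups of 3 libraries each, so they mainly reflect the level in each group.

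Markers of other cell types were examined beside these values. The leukocyte genes PTPRC, CD14, CD68, ITGAM and CSF1R were listed at 0 in all libraries. Of 9 listed cumulus and granulosa cell genes, 6 were at 0 in all libraries, and the sum was 17.2 to 19.2 TPM in control and 15.1 to 17.1 TPM with MT, nearly all from FSHR. Of 7 oocyte genes, 5 were at 0 in all libraries and the sum was at most 0.95 TPM. The hypoblast list lay on the same side as IL6: its sum was 0.2 to 0.44 TPM in control and 61.2 to 69.6 TPM with MT, with GATA4 at 0 throughout, SOX17 at 0.20 TPM or less, and GATA6, PDGFRA and HNF4A higher with MT. The sum over the 5 inner cell mass genes was 209 to 209.6 TPM in control and 290 to 294 TPM with MT. Most of that difference came from KLF4, with means of 18.1 and 83.8 TPM. POU5F1, most of the sum, was not called, with means of 189.8 and 192.6 TPM. NANOG and SOX2 were higher with MT and LIN28B was lower. The sum over the 7 trophectoderm genes was 11356 to 11698 TPM and 10486 to 10839 TPM. Nearly all of it came from KRT8, which was lower with MT, and KRT18, which was higher. Of the remaining trophectoderm genes, CDX2, GATA2, GATA3 and TFAP2C were higher with MT and TFAP2A was lower. The part of hypoblast and inner cell mass cells in the values of the 9 genes was not tested.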

How the data were processed

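Gene expression was measured in 6 libraries of bovine blastocysts. Per the labels and the paper, the authors controlled reads with fastp and FastQC 0.11.9, aligned them with STAR 2.7.9a and counted them with featureCounts (Subread 1.6.3). The labels name the build ARS-UCD1.2 and the paper ARS-UCD1.3, and the labels name a TruSeq kit and the paper Smart-seq2. The authors deposited TPM rounded to 2 decimals, and how counts became TPM is not given in the sources used here. TPM does not hold the depth, and the depths the study gives were not used here.

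Groups came from the labels. Genes with at least 1 TPM in at least 3 libraries were fitted as log2(TPM + 1) with limma 3.58.1 (R 4.3.3, eBayes with trend) and Benjamini-Hochberg adjustment at 0.05. The fit was run on simulated data in which 200 of 11953 genes differed by 1 log2 unit, and 96% were recovered with 13 false calls. Far more genes were called in the real data, and many were listed at 0 in a group, so the simulation does not cover that setting. The members and all lists were chosen with earlier results of these data known. Members got no test. Named are all members, other ligand, receptor, kinase, STAT and SOCS genes reaching 1 TPM, up to 2 rises and 2 falls from each other list, and the nearest profile of each tested member. Some of the genes so chosen are not reported here. Genes added after their values were seen are those given at or near 0, ADAM10, PIAS1, PIAS3, PIAS4, marker genes and the genes of the closing section. Also run were quantile normalization, median centring, a smaller pseudocount (0.1), a fit without filter, a filter at 5 TPM, eBayes without trend, leaving out each library, and the replicate number as block. A fit of the genes above 0 in every library was added after the data were seen. RefSeq gene order (ARS-UCD2.0) was used for neighbours. All 9 members matched it by symbol. Tables were made in Python 3.11.15 with pandas 2.3.3, and figures with matplotlib 3.10.9. No sequences were used here.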

Additional observations from a re-analysis of the deposited data

How the results depend on the processing

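With a pseudocount of 0.1, median centring or quantile normalization, 22 log2 differences of the 8 detected members moved by more than the SD between replicates, and 0 changed direction. Leaving out a library moved none of them by more than that SD. The filters, the trend and the block cannot move a difference of group means. Of 346 combinations for the other named genes, 340 kept their direction and their side of the threshold. Size is not covered by that count. PTPN2, at -0.92 on the log2 scale as reported, was -0.44 after median centring and -1.78 with quantile normalization. BCL3 and CEBPB, at -1.83 and -1.89 as reported, were -3.17 and -3.11 with quantile normalization. SOCS6 turned to 0.25 after median centring, where ADAM10 (0.49) became called. With quantile normalization PIAS4 turned to -0.42 and ADAM10 to -0.14, and with each library left out ADAM10 lay between -0.0031 (without control replicate 1) and 0.042 (without control replicate 3), with no call. SOCS5 was no longer called after quantile normalization. The cause was not tested. The counts of 29 higher and 16 lower pathway genes stayed within 1.5 times under all settings except the restriction given next, at 20 to 41 higher and 12 to 20 lower. With genes above 0 in all 6 libraries, 9 pathway genes and 2814 of all genes were higher, since that restriction leaves out genes at 0 in control. With the replicate number as a block (replicate block), the pathway counts were again 29 and 16, and 7379 genes were higher and 4082 lower overall. Per the methods, the groups were treated side by side in each run, but the labels do not tie a replicate number to a run. Deviations of same-numbered libraries correlated at 0.0942, -7e-04 and 0.150. Control replicates 1 and 3 correlated best with their own number, and control replicate 2 with MT-treated replicate 1 (0.057). Deviations from the mean of so few libraries depend on each other, so these correlations cannot decide the pairing. The numbers were not taken as pairs, and whether same-numbered libraries share a run is not known. Without counts, a listed 0 has no limit of detection.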

Other observations

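Receptors with more than 1 chain were read chain by chain, a reading chosen after the values were seen. IFNGR1 had 18.9, 19.1 and 18.3 TPM with MT, while IFNGR2, its partner in the interferon gamma receptor, was listed at 0 in all MT-treated libraries and did not exceed 0.04 TPM in control. IFNAR1, a chain of the receptor of type I interferons, the class that includes the interferon tau made by bovine trophectoderm, was listed at 0 in control and had 9.19, 4.15 and 7.06 TPM with MT, whereas IFNAR2 was listed at 0 in every library. CSF2RA had 22.8 to 26.1 TPM in control, and CSF2RB, the signal chain it needs, was listed at 0 there and had at most 0.03 TPM with MT. IL10RB was present in every library, with IL10RA and IFNLR1 listed at 0 throughout. IL15RA and IL2RG, chains of the IL15 receptor, were listed at 0 for control and had 8.17 to 8.99 and 0.84 to 1.31 TPM with MT. Both were thus above 0 in each MT-treated library, although IL2RG was too low to test. No other chain of the IL15 receptor was examined, so whether its chains were all present is not known. IL6R and IL6ST were both above 15 TPM in every library. GHR, which signals as a pair of like chains, was listed at 0 in control and had 10.2, 11.3 and 12.9 TPM with MT.

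Among the genes known as STAT3 targets, KLF4, a pluripotency factor, had 17.7, 19.2 and 17.3 TPM in control and 84.0, 83.7 and 83.6 TPM with MT, and MYC had 1.93, 1.85 and 2.03 TPM in control and 10.8, 7.88 and 10.7 TPM with MT. MCL1, a survival factor, had 119, 119 and 119 TPM in control and 49.0, 48.4 and 48.8 TPM with MT. KLF4 and MYC lay above control and MCL1 below it in every MT-treated library. FOS was listed at 0 in control and had 5.48, 5.22 and 6.01 TPM with MT.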
